A study of Mus musculus with 148 samples.

Results

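Immune cells of primary mammary tumors were compared with immune cells photoactivated in the core of lung metastases, gene by gene and lineage by lineage. The cells were those of every sample labelled as primary tumor (4 mice) and of every sample labelled MET Core (13 mice), which gave 17 of the 63 samples of the series and 4952 of its 23425 immune cells, 1557 from tumors and 3395 from cores. All mice were female PA-GFP C57BL/6 animals, which express a photoactivatable GFP, and all had received EO771-tdTomato mammary carcinoma cells in the right inguinal mammary gland at 8 weeks of age. Tumors were resected 3 weeks after injection, and lungs were followed by CT until metastases appeared. Primary tumors were taken as whole tissue, dissociated with a tumor program and sorted as CD31-CD45+ cells. Cores were lit through the microscope in dissected lungs, dissociated with a lung program and sorted as CD31-GFP+ cells, with a CD45 gate added for mouse 17. EO771 is 1 transplanted cell line, so both groups model a single tumor genotype. No mouse gave both tissues, so the site, the day of harvest, the photoactivation, the dissociation and the gate cannot be told apart in any difference given here. Cell types were the annotation deposited with the data, and expression was compared within T cells, NK cells, dendritic cells, monocytes and macrophages, and within the Mon Thbs1, Mac Isg20 and CD8 Gzmk subpopulations.

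Macrophages in a tumor arise in part from monocytes that leave the blood, and pass from a state rich in monocyte genes to states with scavenger receptors, complement and antigen presentation. Resident-like macrophages are known for C1q, the recognition unit of the classical complement pathway, while lipid-associated macrophages carry Trem2, Gpnmb, Spp1 and Cd36 and are found where cells take up debris and fat. Among lymphocytes, regulatory T cells hold down immune responses, naive cells circulate, and NK cells and effector CD8 T cells kill with granzymes and draw in other cells with Ccl5.

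Depth differed strongly between the tissues. A primary tumor mouse gave 295 to 523 cells and 833220 to 2730606 unique molecular identifiers (UMIs), with a median of 1972 to 3689.5 UMIs per cell, and a core gave 77 to 828 cells and 62896 to 2211375 UMIs, with 686 to 1787.5 per cell. The share of mitochondrial UMIs was 1.73 to 2.28% in tumors and 1.56 to 2.49% in cores. Empty wells held a median of 24 UMIs on tumor plates and 6 on core plates, 0.762% and 0.553% of a median cell. No well identifier was found on more than 1 plate. Levels are given as CPM, the UMIs of a gene scaled by all UMIs of that lineage in that mouse to a total of 1000000, so a gene can differ in CPM because all other genes moved. A log2 fold change is core minus primary throughout, with its standard error (SE) and the Benjamini-Hochberg adjusted p of edgeR's quasi-likelihood test, and a gene is called at an adjusted p under 0.05. In a lineage sum, more cells of a subpopulation and more RNA of a gene per cell cannot be told apart.

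Sequencing batch ran with tissue. Only 1 batch held both, with the tumor of mouse 8 and the cores of mice 36 and 37, while the tumors of mice 9, 10 and 38 shared another batch and the other 11 cores lay in 4 further batches. The batch went with whole sums and with single genes. Processed pseudogenes held 10.77 to 15.41% of T cell UMIs in tumors. They held 11.34 and 13.58% in the shared-batch cores and 12.67 to 22.24% in the other cores. In monocytes these shares were 6.64 to 10.32%, 6.65 and 9.24%, and 8.16 to 15.67%. Setting single genes aside therefore does not remove the batch from the comparison. Rpl35, a ribosomal protein gene, stood in T cells at 104 to 140 CPM in the 4 tumors, at 49.0 and 235 CPM in the cores of the shared batch, and at 385 to 2968 CPM in the other 11 cores. In monocytes, Rpl35 stood at 42.0 to 109 CPM in the 4 tumors, at 50.2 and 57.6 CPM in the shared-batch cores and at 105 to 1632 CPM in the others. Gm10059, Gm4613, Rps27, Abhd16b and Myl6 were read for the same reason only beside their batch values. The ratio of Cd74 to H2-Ab1, 2 genes of the same antigen presentation pathway, also moved with batch: in monocytes it was 0.666 to 0.886 in the tumors, 0.654 and 1.09 in the shared-batch cores, and 0.129 to 15.0 in the other cores. Cd74 is therefore given with its values and no weight. Each lineage was also compared in the shared batch alone, where 1 tumor against 1 or 2 cores allows no test but shows a direction. These mice were also in the fits that gave the calls, so a called gene tends to share its direction there. Agreement in that batch is therefore a description.

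**Figure D1:**
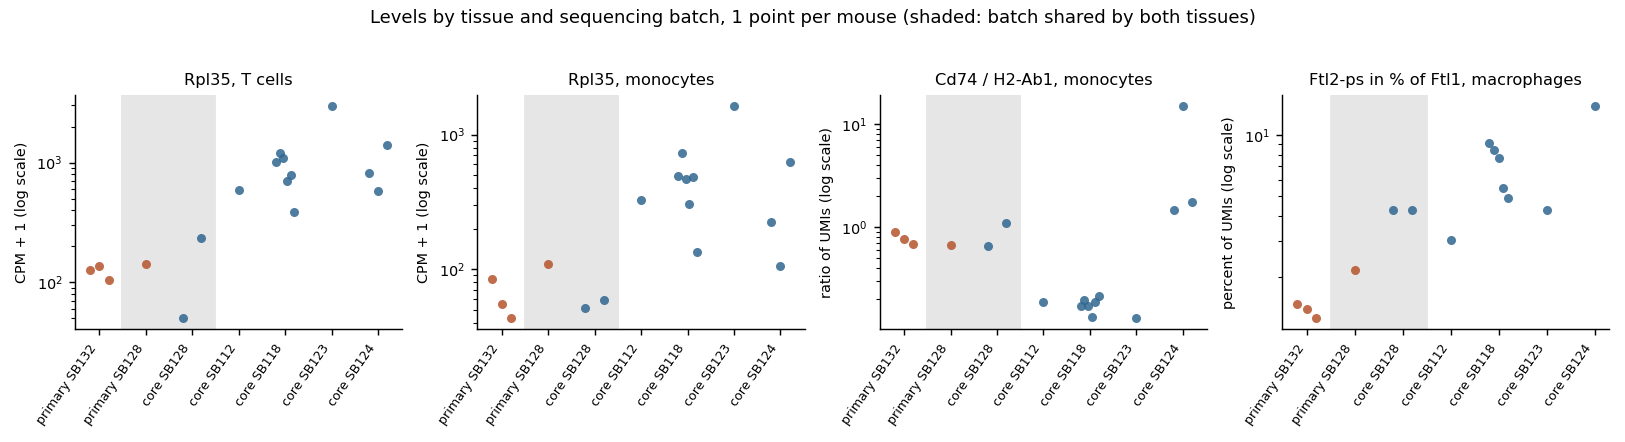
Levels of Rpl35 in T cells and monocytes (CPM), the ratio of Cd74 to H2-Ab1 in monocytes, and Ftl2-ps as a percent of Ftl1 in macrophages, 1 point per mouse, by tissue and sequencing batch, with the batch that holds both tissues shaded. In that batch Rpl35 of the 2 cores lies near the tumors at 49.0 and 235 CPM in T cells, while the cores of other batches reach 2968 CPM.

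In macrophages, with 194 cells of 4 tumors and 400 cells of 10 cores, 65 of 2162 genes tested were higher in cores (3.01%) and 34 were lower (1.57%). The mice of the tissues did not overlap in 58 of all genes tested (2.68%), and 39 of the 99 called genes were among these. Complement and resident-type genes were among those lower in core macrophages, such as C1qa with a fitted fold of 6.28 and Ccl8 with a fitted fold of 42.2. Some genes of lipid-associated macrophages, oxidative stress and chemokines were among those higher, with fitted folds of 5.7 for Spp1, 48 for Gpnmb and 9.01 for Cxcl2. The summed monocyte and macrophage markers, a list that does not tell these 2 cell types apart, lay at 18910 to 24900 CPM in tumor macrophages and 14690 to 34280 CPM in core macrophages.

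C1qa, C1qb and C1qc encode the 3 chains of C1q and lie side by side on the minus strand of chromosome 4 (GRCm38/mm10: C1qb 136880129 to 136886187, C1qc 136889804 to 136893065, C1qa 136895917 to 136898803). C1qa read 3828, 3878, 4264 and 3892 CPM in the tumors of mice 8, 9, 10 and 38, and 125 at the lowest, 430 at the median and 2481 at the highest core. Every tumor was above every core, and the log2 fold change was -2.65 (SE 0.49, adjusted p = 0.00179). C1qb read 9055, 6299, 6207 and 6787 CPM in tumors and 1058, 2102 and 4135 CPM in the lowest, median and highest core, again without overlap (log2 fold change -1.57, SE 0.31, adjusted p = 0.00264). C1qc, at 2043, 2621, 3182 and 3626 CPM in tumors and 162 to 3453 CPM in cores, overlapped through the core of mouse 31 (log2 fold change -1.87, SE 0.52, adjusted p = 0.0404), and its call was lost without the tumor of mouse 9, 10 or 38, with adjusted p = 0.076, 0.11 and 0.15. In the shared batch, C1qa was 3828 CPM in the tumor and 957 and 452 CPM in the 2 cores.

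All 13 tested genes of the complement and tissue-resident macrophage list had a negative log2 fold change, with a median of -1.57 against 0.01 over all genes tested, and 8 were called lower: C1qa, C1qb, C1qc, Ccl8, Cd81, Mgl2, Mrc1 and Ms4a7. Of all genes tested in macrophages, 1.57% were called lower. The study had already named C1qa, C1qb, C1qc, Ccl8 and Cd81 for primary tumor macrophages from these same cells. The shared sign is therefore a description. Ccl8, a chemokine for monocytes and T cells, read 353, 5339, 1772 and 4363 CPM in tumors, and 6 of the 10 cores held any UMI of it, with a median of 14.1 CPM and a highest value of 420 CPM in mouse 37 (log2 fold change -5.40, SE 0.77, adjusted p = 0.000236). The groups met there, because the tumor of mouse 8 lay below that core, and in the shared batch the 2 cores lay on either side of the tumor, at 60.9 and 420 CPM against 353 CPM. Cd81, a tetraspanin whose name the tumor subpopulation Mac Cd81 bears, read 270, 558, 694 and 628 CPM in tumors and 0 to 189 CPM in cores, with no overlap (log2 fold change -2.58, SE 0.43, adjusted p = 0.000768). Mrc1, the mannose receptor CD206, read 446, 1787, 821 and 465 CPM in tumors and 0 to 581 CPM in cores (log2 fold change -2.28, SE 0.55, adjusted p = 0.0141). Mrc1, like Mgl2 and Ms4a7, was not called in every fit that left out a tumor.

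Some surface receptor genes outside that list were also called lower, while the receptor genes Cd36, Il7r and Clec4d were called higher. Adgre1, the gene of the macrophage marker F4/80, read 892, 905, 1681 and 1944 CPM in tumors and 41.5 to 825 CPM in cores (log2 fold change -2.06, SE 0.44, adjusted p = 0.00628). Fcgr4, an activating Fc receptor for IgG, read 446, 452, 612 and 890 CPM in tumors and 0 to 249 CPM in cores (log2 fold change -2.20, SE 0.39, adjusted p = 0.00148). Clec4a1, a C-type lectin receptor, read 322, 399, 532 and 478 CPM against 0 to 166 CPM, and Cd72, an inhibitory coreceptor best known from B cells, read 259, 399, 616 and 703 CPM against 0 to 214 CPM. In all 4 of these genes every tumor was above every core. Antigen presentation genes leaned the same way with less certainty: the 7 tested genes of the MHC class II list were all negative, with a median log2 fold change of -1.32, but H2-Eb1 alone was called. H2-Eb1 read 6628, 2809, 7411 and 6590 CPM in tumors and 228 to 3839 CPM in cores (log2 fold change -1.66, SE 0.47, adjusted p = 0.0404), and lost its call without the tumor of mouse 8, 10 or 38. H2-Ab1 had a log2 fold change of -1.09 (adjusted p = 0.154). Of the interferon-gamma GTPases, Gbp7 was lower (log2 fold change -1.86, adjusted p = 0.00977), while the 37 tested type I interferon genes gave no call and a median of 0.05. Gbp7 was not called in all 4 fits that left out 1 tumor.

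**Figure D2:**
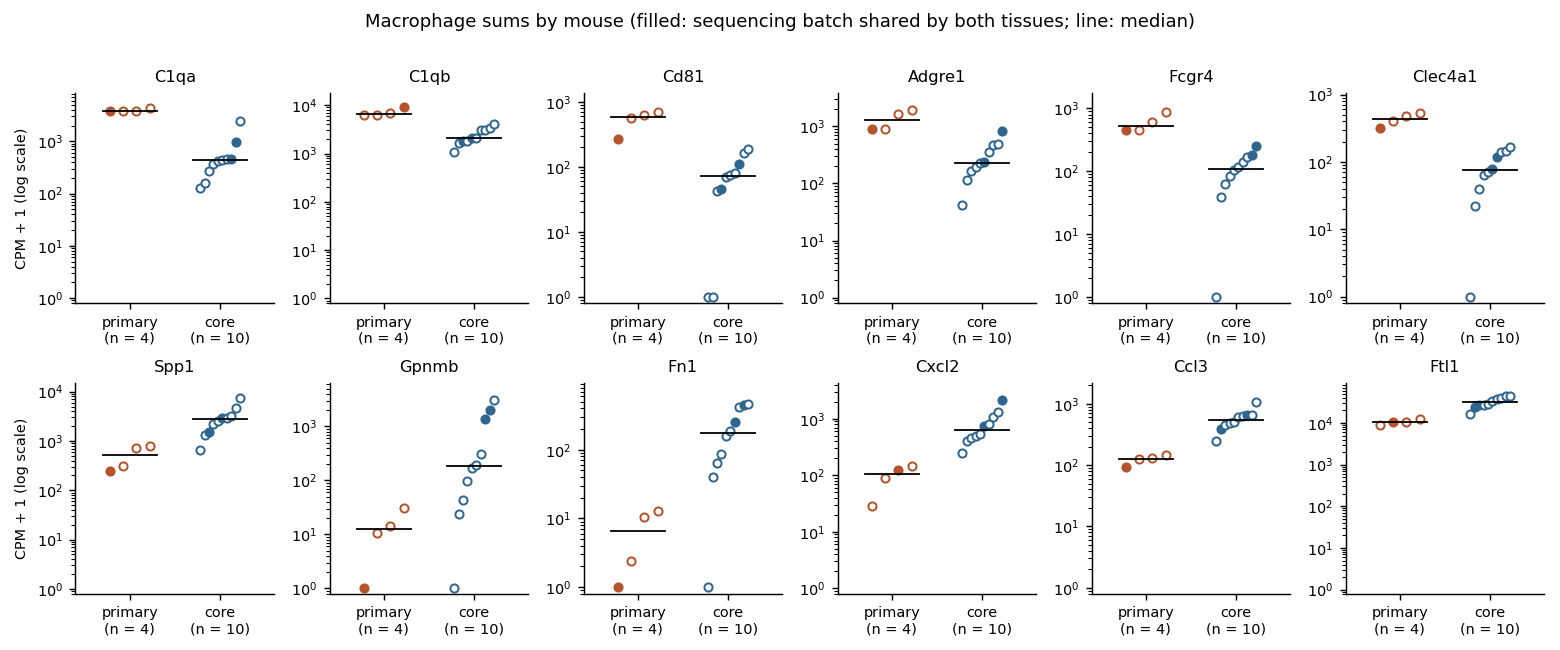
CPM + 1 on a log scale of 12 genes in macrophages of 4 primary tumors and 10 metastasis cores, 1 point per mouse, filled for the sequencing batch that both tissues share, with a line at the median. C1qa, C1qb, Cd81, Adgre1, Fcgr4 and Clec4a1 lie higher in every tumor, Cxcl2, Ccl3 and Ftl1 lie higher in every core, and Spp1, Gpnmb and Fn1 overlap in a few mice.

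All 18 tested genes of the lipid-associated macrophage list had a positive log2 fold change, with a median of 1.08, and 5 were called higher: Cd36, Cstb, Gpnmb, Il7r and Spp1. Of all genes tested in macrophages, 3.01% were called higher. The study had already named Gpnmb, Trem2 and Cd63 for the regulatory macrophages of metastases from these same cells. It also gave SPP1 and IL7R among their protein markers. The shared sign of this list is a description too. Cd63 had a log2 fold change of 0.005 in macrophages (adjusted p = 0.995). Spp1, the secreted matrix protein osteopontin, read 249, 806, 313 and 707 CPM in tumors and 659, 2750 and 7394 CPM in the lowest, median and highest core (log2 fold change 2.51, SE 0.53, adjusted p = 0.0054). The groups overlapped through the lowest core. Gpnmb, a lysosomal membrane glycoprotein, read 0, 9.51, 29.3 and 13.6 CPM in tumors and 0 to 3143 CPM in cores, with a median of 181 CPM and no UMI in the core of mouse 25 (log2 fold change 5.58, SE 1.2, adjusted p = 0.00628). The high values came from 3 cores, those of mice 31, 36 and 37 at 3143, 1986 and 1371 CPM, and the other 7 lay between 0 and 310 CPM. The mean of the cores was 734 CPM, and 466 CPM without mouse 31. Cd36, a scavenger receptor for oxidized lipid, read 0, 0, 15.3 and 12.3 CPM in tumors and 23.2 to 234 CPM in cores, with no overlap (log2 fold change 3.82, SE 0.74, adjusted p = 0.00264). Trem2, the lipid receptor that gives these macrophages their name, read 114, 47.5, 106 and 19.1 CPM in tumors and 0, 224 and 910 CPM in the lowest, median and highest core, and did not pass the test (log2 fold change 2.04, SE 0.73, adjusted p = 0.116). Apoe, a lipid carrier of resident and lipid-associated macrophages alike, had a log2 fold change of -0.86 (adjusted p = 0.497).

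Some genes that guard against oxidants or handle iron were called higher in core macrophages. They were grouped after their values were seen. Of the 6 tested genes of the arginine, nitric oxide and haem list only Ftl1 and Hmox1 were called, beside 3.01% of all tested genes called higher. Slc7a11, the cystine importer that feeds glutathione synthesis, read 10.4, 4.75, 55.7 and 6.82 CPM in tumors and 95.0, 193 and 598 CPM in the lowest, median and highest core, without overlap (log2 fold change 3.46, SE 0.67, adjusted p = 0.00264). Gclm, a subunit of the rate-limiting enzyme of glutathione synthesis, Txnrd1, a thioredoxin reductase, and Prdx6, a peroxiredoxin, were called higher with log2 fold changes of 3.20, 2.41 and 1.84 (adjusted p = 0.00878, 0.0404 and 0.0159). Slc7a11 was called in all 4 fits that left out 1 tumor, and none of Gclm, Txnrd1 and Prdx6 was. Hmox1, which breaks down haem, read 207, 276, 194 and 296 CPM in tumors and 232 to 2655 CPM in cores (log2 fold change 2.47, SE 0.55, adjusted p = 0.00878), and lost its call without the tumor of mouse 10 (adjusted p = 0.056). Ftl1, the light chain of ferritin, read 10500, 8866, 10700 and 12200 CPM in tumors and 16750, 31740 and 44970 CPM in the lowest, median and highest core, so that every core was above every tumor (log2 fold change 1.61, SE 0.32, adjusted p = 0.00267). The heavy chain Fth1 had a log2 fold change of 0.69 (adjusted p = 0.304). Reads of Ftl1 share sequence with its pseudogenes, and Ftl1-ps1, Ftl1-ps2 and Ftl2-ps were called higher too, Ftl2-ps with a log2 fold change of 3.66 (adjusted p = 9.09e-05). Ftl2-ps held 1.25 to 2.17% of the Ftl1 level in tumors, 4.26 and 4.28% in the shared-batch cores and 3.03 to 13.9% in the other cores, so how reads were split between these copies moved with the samples, and its part in the Ftl1 value was not tested. Erythroid markers, whose cells are rich in haem, summed to 0 to 21.4 CPM in tumor macrophages and 0 to 469 CPM in core macrophages, with 5 of 9 markers at 0 in tumors and 3 of 9 in cores.

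The oxidative stress genes were chosen for a look at their promoters after their values were seen, since many such genes are known targets of NRF2 at antioxidant response elements, and the C1q genes were added because they fell together. RefSeq promoters of GRCm38.p6, 250 bases before to 50 after the start, were at hand for Slc7a11, Gclm, Txnrd1 and Ftl1 and for C1qb and C1qc. The core of the antioxidant element, TGACNNNGC, was searched on both strands and was found once in Gclm and in 1 of the 3 starts listed for Txnrd1, but not in Slc7a11 or Ftl1, while 12.4% of 32851 promoters of this length held it. The core of the PU box, GAGGAA, bound by the myeloid factor PU.1, was found once each in C1qb and C1qc, and 28.3% of all promoters held it. A match is a string of letters and not a measured binding site, and the capitals below mark the match.
Gclm, chr3:122245307-122245606, plus strand: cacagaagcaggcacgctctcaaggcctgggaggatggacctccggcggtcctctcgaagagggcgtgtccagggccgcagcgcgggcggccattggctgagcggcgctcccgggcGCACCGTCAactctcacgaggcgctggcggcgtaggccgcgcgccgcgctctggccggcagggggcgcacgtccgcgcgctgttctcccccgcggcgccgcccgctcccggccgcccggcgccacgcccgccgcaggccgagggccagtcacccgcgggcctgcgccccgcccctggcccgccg
Txnrd1, chr10:82858956-82859255, plus strand: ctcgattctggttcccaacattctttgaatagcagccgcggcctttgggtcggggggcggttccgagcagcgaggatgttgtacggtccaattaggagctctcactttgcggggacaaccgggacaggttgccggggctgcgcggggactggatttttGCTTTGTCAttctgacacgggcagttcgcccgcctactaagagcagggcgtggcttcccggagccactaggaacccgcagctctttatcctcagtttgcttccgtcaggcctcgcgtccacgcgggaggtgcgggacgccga
C1qb, chr4:136886151-136886450, minus strand: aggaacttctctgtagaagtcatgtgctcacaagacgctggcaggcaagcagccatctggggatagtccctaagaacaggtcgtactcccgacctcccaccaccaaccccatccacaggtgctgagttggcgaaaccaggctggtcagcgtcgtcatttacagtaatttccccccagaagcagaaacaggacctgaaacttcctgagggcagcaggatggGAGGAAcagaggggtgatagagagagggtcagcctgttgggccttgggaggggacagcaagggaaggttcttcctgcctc
C1qc, chr4:136892865-136893164, minus strand: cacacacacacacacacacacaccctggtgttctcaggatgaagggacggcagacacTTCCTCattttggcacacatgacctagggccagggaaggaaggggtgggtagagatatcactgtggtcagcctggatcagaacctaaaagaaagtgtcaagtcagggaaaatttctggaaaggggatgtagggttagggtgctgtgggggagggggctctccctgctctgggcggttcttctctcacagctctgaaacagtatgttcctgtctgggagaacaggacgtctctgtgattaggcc

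All 15 tested genes of the inflammatory mediator list were positive in macrophages, with a median log2 fold change of 1.53. Acod1, Ccl3, Clec4d, Cxcl2 and Nfkbia were called higher, beside 3.01% of all tested genes. The study had already named Cxcl2, Clec4d and Il1b for the Mac Isg20 cells of the core, so this sign is likewise a description. Cxcl2, which draws neutrophils, read 125, 145, 27.9 and 88.6 CPM in tumors and 248, 642 and 2134 CPM in the lowest, median and highest core (log2 fold change 3.17, SE 0.57, adjusted p = 0.00148). Ccl3, an inflammatory chemokine of macrophages, read 93.4, 145, 124 and 130 CPM in tumors and 243, 549 and 1079 CPM in cores (log2 fold change 2.21, SE 0.40, adjusted p = 0.00148). Neither gene overlapped between tissues, and in the shared batch Cxcl2 was 125 CPM in the tumor and 741 and 2134 CPM in the cores. Ccl6 was called with a log2 fold change of 2.03 (adjusted p = 0.0108), lost without the tumor of mouse 10 or 38. Ccl2, the main monocyte chemoattractant, read 104, 739, 667 and 646 CPM in tumors and 207, 2879 and 7180 CPM in cores (log2 fold change 2.41, SE 0.69, adjusted p = 0.0416), and lost its call without any 1 of the tumors, with adjusted p of 0.11 to 0.13. Il1b, in contrast, had a log2 fold change of 0.19 (adjusted p = 0.895).

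Of the 15 tested monocyte identity genes, 14 had a positive log2 fold change, with a median of 1.35, and only Crip1 and Fn1 were called, beside 3.01% of all tested genes. Fn1, fibronectin, read 0, 11.9, 1.39 and 9.54 CPM in tumors and 0, 173 and 464 CPM in cores (log2 fold change 4.98, SE 0.79, adjusted p = 0.00045). The fitted fold was 31.6, and 9 of the 10 cores held any UMI of it. Crip1, a small LIM protein of monocytes, was called (log2 fold change 1.93, adjusted p = 0.0274) but read 571 CPM in the tumor of the shared batch and 487 and 280 CPM in its cores. The coagulation factor genes F10 and F7 rose with log2 fold changes of 2.44 and 2.56 (adjusted p = 0.00348 and 0.0289). F10 was called in all 4 fits that left out 1 tumor, and F7 was not. S100a8, a neutrophil and early monocyte alarmin gene, rose from 0 to 38.0 CPM in tumors to 20.7 to 1253 CPM in cores (log2 fold change 5.10, SE 0.98, adjusted p = 0.00258). Beside it, the summed neutrophil markers read 213 to 529 CPM in tumors and 82.7 to 2232 CPM in cores, with 4 of 14 markers at 0 in tumors and none in cores, and their part in the result was not tested. S100a8 also rose in T cells, NK cells and monocytes.

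The makeup of the macrophages differed with tissue. Over all mice, Mac Cd81 cells were 82.5% of tumor macrophages and 19.04% of core macrophages, Mac Isg20 13.4 and 56.6%, and Mac Gpnmb 3.61 and 23.6%. These subpopulations were defined on the expression of these same cells, so levels within them are a description. In pooled Mac Cd81 cells, C1qa read 4301 CPM in tumors and 1530 CPM in cores, Adgre1 1684 and 282 CPM, Ccl8 3741 and 193 CPM, and Selenop, a selenoprotein of resident macrophages, 1262 and 136 CPM. In the same cells Cxcl2 read 49.9 CPM in tumors and 423 CPM in cores, Fn1 6.66 and 188 CPM, and Slc7a11 6.10 and 131 CPM. Without the core of mouse 37, Ccl8 read 57.7, Selenop 63.5 and Cxcl2 219 CPM in core Mac Cd81 cells, and without that of mouse 26 Fn1 read 124 CPM. Each lay on the same side of the tumors as before. H2-Ab1 went the other way within Mac Cd81, at 14620 CPM in tumors and 19280 CPM in cores, and Ccl2 read 621 and 350 CPM, or 539 CPM in cores without mouse 17. When the core cells of Mac Cd81 and Mac Isg20 were weighted to the tumor proportions of the 2, the core level went from 605 to 1371 CPM for C1qa against 4113 CPM in tumors, from 4260 to 1818 CPM for Spp1 against 565 CPM, and from 1507 to 480 CPM for Hmox1 against 240 CPM. Without the core of mouse 17 the weighted Spp1 level was 927 CPM. For H2-Ab1 it went from 7645 to 17280 CPM against 14040 CPM, past the tumor level. Fn1 and Adgre1 moved little with the weights, from 199 to 190 CPM and from 324 to 289 CPM. Mac Cd81 cells were also tested alone (4 tumors and 6 cores), a comparison added after the data were seen. Of 982 genes tested there, 23 were higher in cores and 25 lower. C1qa, Ccl8, Adgre1, Fcgr4 and Clec4a1 were still called lower, and C1qb was no longer called (log2 fold change -0.91, adjusted p = 0.13).

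**Figure D3:**
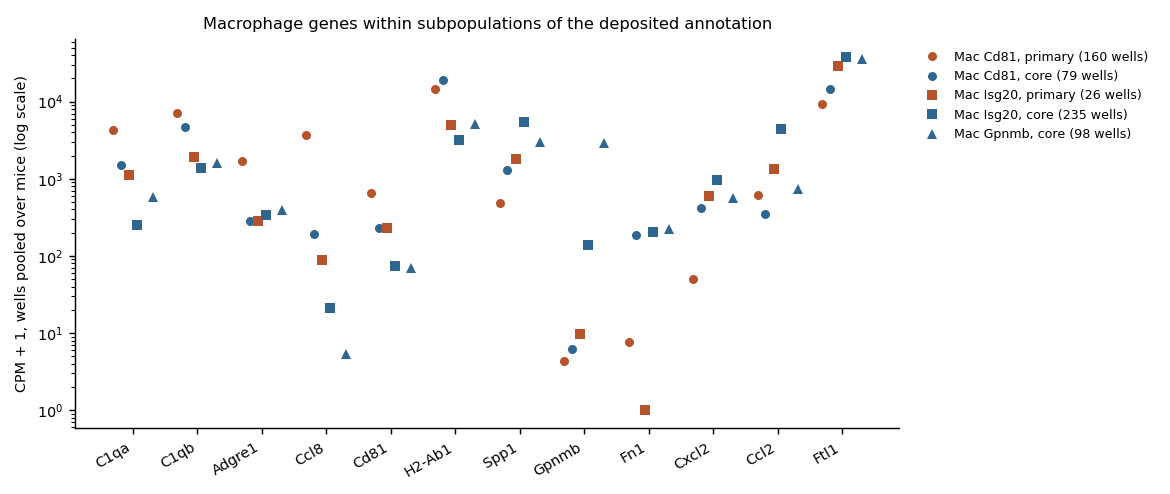
Pooled CPM + 1 on a log scale of macrophage genes within Mac Cd81 (160 tumor and 79 core cells), Mac Isg20 (26 and 235) and Mac Gpnmb (98 core cells), 1 point per subpopulation and tissue, without an error since cells were pooled. Within Mac Cd81, C1qa, Adgre1 and Ccl8 lie lower in cores and Cxcl2 and Fn1 higher, while H2-Ab1 lies higher in cores at 19280 CPM.

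Of the 99 genes called in macrophages, 42 to 75 were still called when 1 tumor was left out, and 33 in all 4 such fits, including C1qa, C1qb, Ccl8, Cd81, Adgre1, Fcgr4, Clec4a1, Spp1, Gpnmb, Fn1, Cd36, Cxcl2, Ccl3, Slc7a11 and Ftl1. Also held were Cd72, Clec4d, F10, Ifitm2, Limd2, S100a8, Sgk1 and Tmem176b. The rest were ferritin copies, another pseudogene and microRNA loci: Ftl1-ps1, Ftl1-ps2, Ftl2-ps, Gm15590, Gm22751, Gm24098, Gm24272, Mir692-1, Mir692-2 and Mir692-3. In the shared batch, 60 of the 65 genes called higher and 31 of the 34 called lower had both cores on that side of the tumor, against 31.7% of all tested genes with both cores above and 40.6% with both below. The exceptions were Abhd16b, Acod1, Crip1, Rps19-ps3 and S100a10 among the first and Ccl8, Ehd4 and Selenop among the second. The tumor and the 2 cores of that batch were also in the fit that made the calls. For the 39 called genes without overlap the side was fixed by that. With batch as a covariate, which rests on these 3 mice, 2 genes were called in macrophages. Gpnmb was one of them, but the tumor of that batch held no UMI of it, so that fit gives no fold. Metastasis sections taken without photoactivation from 9 mice had C1qa at 163 to 1213 CPM, Spp1 at 1393 to 3271 CPM and Ftl1 at 19310 to 46490 CPM, on the core side of every tumor for these 3 genes. Nearly all mice with metastasis sections or distal lung samples also gave a core, so these are not separate animals. Distal lung of 6 mice had C1qa at 35.3 to 510 CPM, also below every tumor, but Mrc1 at 227 to 1307 CPM, across the range of the tumors.

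**Figure D4:**
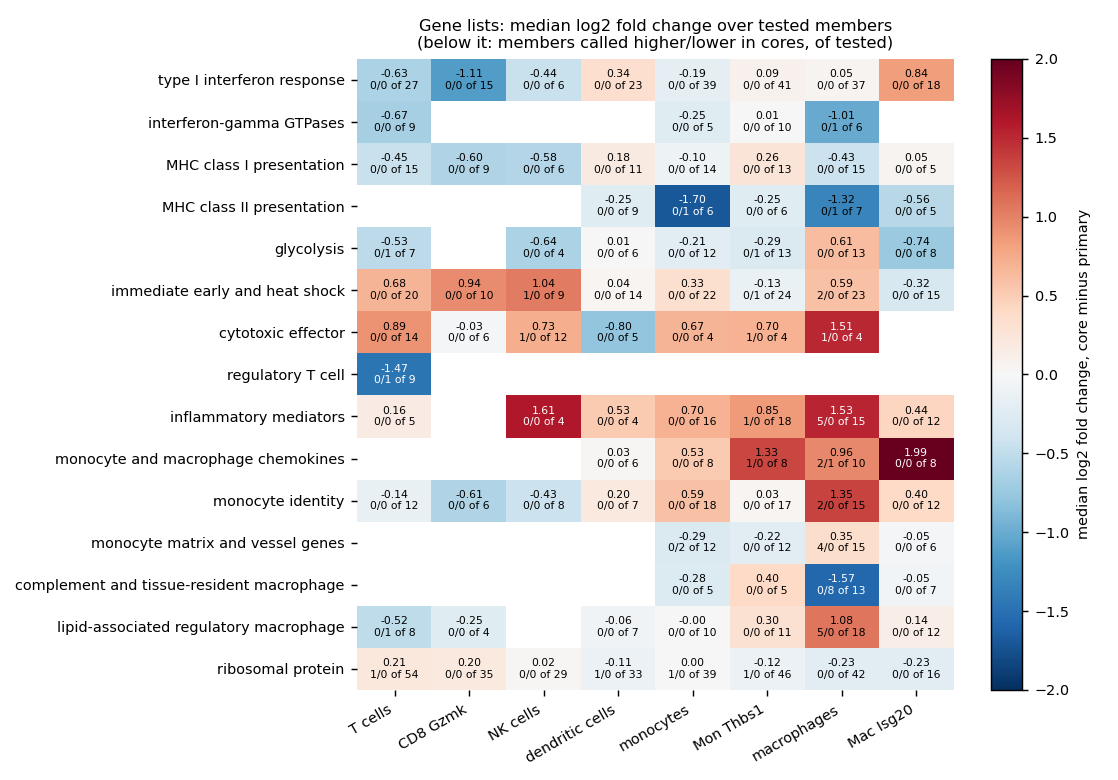
Median log2 fold change (core minus primary tumor) over the tested genes of each gene list, by population, as a heat map, with the number of genes called higher and lower of those tested in each cell. In macrophages the complement list stands at -1.57 with 8 of 13 called lower, and the lipid-associated and inflammatory lists stand at 1.08 and 1.53 with 5 called higher in each. Of all genes tested in macrophages, 1.57% were called lower and 3.01% higher.

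In monocytes (503 cells of 4 tumors, 727 cells of 13 cores), 17 of 1835 genes were higher in cores (0.926%) and 10 were lower (0.545%). H2-Eb1, an MHC class II beta chain, and Tgfbi, an adhesion protein induced by TGF-beta, were lower in cores, while Nr4a2, an orphan nuclear receptor of the immediate early response, and Gadd45b, a stress response gene, were higher. H2-Eb1 read 4465, 4711, 3527 and 5271 CPM in tumors and 105, 734 and 2578 CPM in the lowest, median and highest core, with every tumor above every core (log2 fold change -2.15, SE 0.45, adjusted p = 0.0151). The other MHC class II genes leaned with it: all 6 tested were negative with a median of -1.70, but H2-Ab1 (log2 fold change -1.61, adjusted p = 0.138) did not pass. MHC-II monocytes were 45.3% of tumor monocytes and 8.12% of core monocytes. Within these cells H2-Eb1 read 7518 CPM in tumors and 3910 CPM in cores, and within Mon Thbs1 cells 1245 and 619 CPM, or 976 CPM in cores without mouse 28. Tgfbi read 1965, 2104, 2408 and 1520 CPM in tumors and 577 to 1337 CPM in cores, without overlap (log2 fold change -1.16, SE 0.26, adjusted p = 0.0194). Unlike H2-Eb1, its core level hardly moved when core cells were weighted to the tumor makeup, from 1060 to 1009 CPM against 2029 CPM in tumors.

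Other monocyte genes below the tumors were Ifitm1, an interferon-induced membrane protein (tumors 1549, 729, 1059 and 496 CPM, cores 0 to 449 CPM, log2 fold change -2.37, SE 0.44, adjusted p = 0.00984), and Mmp12, the macrophage elastase (log2 fold change -2.15, adjusted p = 0.0305). Dusp6, a phosphatase that turns off ERK signaling, read 353, 389, 377 and 393 CPM in tumors and 0 to 234 CPM in cores (log2 fold change -1.46, adjusted p = 0.0433). Above the tumors, Nr4a2 read 30.4, 71.4, 12.6 and 36.5 CPM in tumors and 88.6, 200 and 485 CPM in cores, with no overlap (log2 fold change 2.11, SE 0.45, adjusted p = 0.0173). S100a8 read 63.4, 31.1, 29.8 and 4.42 CPM in tumors and 0 to 1413 CPM in cores (log2 fold change 3.68, adjusted p = 0.0187). Summed neutrophil markers read 575 to 994 CPM in tumor monocytes and 58.6 to 2626 CPM in core monocytes, with 3 of 14 at 0 in tumors and none in cores, and their part in the S100a8 value was not tested. The inflammatory mediator list, with 5 calls in macrophages, had none of 16 in monocytes and a median of 0.70, and the monocyte identity list none of 18 and a median of 0.59. None of those 5 inflammatory genes was called in the test of macrophage against monocyte differences given below.

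The number of calls fell when any 1 tumor was left out. Left without the tumor of mouse 8, 9, 10 or 38, the monocyte comparison gave 15, 2, 0 and 2 calls, and H2-Eb1 held its log2 fold change (-2.27 to -2.08) while its adjusted p went to 0.06 without mouse 9, 0.063 without mouse 10 and 0.064 without mouse 38. In the shared batch, 9 of the 10 genes called lower were lower in both cores (H1f0 was not), and 6 of the 17 called higher were higher in both. Over all genes tested, 35.4% were lower in both cores and 23.7% were higher. The share among the genes called higher was near that of all genes. Abhd16b, Ctf1, Ftl2-ps, Gm10059, Gm11290, Gm4613, Lrg1, Mir692-1, Myl6, Rpl35 and S100a8 were not higher in both of these cores. Nr4a2 and Gadd45b were.

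In Mon Thbs1 cells, the thrombospondin-positive monocytes of both sites (187 cells of 4 tumors, 387 cells of 8 cores), 16 of 2345 genes were higher in cores and 16 were lower (0.682% each). The chemokines Ccl2 and Ccl4 were higher and Ifitm2, Tmsb10, Pkm and Gsr lower. Ccl2 read 146, 257, 188 and 810 CPM in tumors and 870, 1959 and 2957 CPM in the lowest, median and highest core (log2 fold change 2.30, SE 0.44, adjusted p = 0.0109). Every core was above every tumor, the tumor of mouse 38 being the nearest. Ccl4, another inflammatory chemokine, read 235, 0, 469 and 338 CPM in tumors and 741 to 1919 CPM in cores (log2 fold change 2.25, SE 0.57, adjusted p = 0.0375). All 8 tested genes of the monocyte and macrophage chemokine list were positive, with a median of 1.33 against -0.05 over all genes, and Ccl2 alone was called. Ifitm2, a relative of Ifitm1, read 5603, 4232, 5540 and 4427 CPM in tumors and 741 to 2993 CPM in cores (log2 fold change -1.49, SE 0.30, adjusted p = 0.0116). Ifitm2 was also lower in macrophages, with 4844, 3529, 3662 and 3496 CPM in tumors and 526 to 2601 CPM in cores (log2 fold change -1.55, adjusted p = 0.0147). Pkm, the pyruvate kinase of the last step of glycolysis, read 2535, 2125, 2383 and 2039 CPM in tumors and 664 to 1779 CPM in cores (log2 fold change -1.17, adjusted p = 0.0481), and 11 of the 13 glycolysis genes tested were negative with a median of -0.29. Thbs1 itself had a log2 fold change of -0.60 (adjusted p = 0.605), and the 41 type I interferon genes had a median of 0.09 with no call. Without the tumor of mouse 10 no gene was called, with Ccl2 at 2.10 and adjusted p = 0.065, and without that of mouse 38 a single gene was. In the shared batch, with 1 core, 10 of the 16 genes called higher were higher and 14 of the 16 called lower were lower. Of all tested genes, 44.6% were higher and 55.2% lower in that core. Abhd16b, Ctf1, Ftl2-ps, Gm10059, Rpl35 and S100a8 were the exceptions among those called higher, and Coro1a and Gm26917 among those called lower.

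In T cells (404 cells of 4 tumors, 1220 cells of 13 cores), 5 of 2197 genes were higher in cores (0.228%) and 6 were lower (0.273%). The gene with the strongest evidence was Ikzf2, which encodes Helios, a transcription factor of regulatory T cells and of chronically stimulated T cells. Ikzf2 (chromosome 1, 69531214 to 69687245, minus strand) read 913, 1099, 799 and 778 CPM in tumors and 44.7, 143 and 426 CPM in the lowest, median and highest core. Every tumor was above every core, a mean of 897 ± 147 CPM (SD, n = 4) against 153 ± 102 CPM (SD, n = 13), and the fitted fold was 6.7 (log2 fold change -2.75, SE 0.32, adjusted p = 1.79e-06). It was called without any 1 of the tumors. Tregs were 20.05% of tumor T cells and 5.74% of core T cells. Ikzf2 was lower in core cells in each of these T cell subpopulations: Treg (2094 CPM in tumors, 661 CPM in cores), CD4 S100a4 (1244 and 208 CPM), CD8 Gzmk (610 and 154 CPM) and CD4 Lef1 (157 and 67.7 CPM). The core value in CD4 S100a4 cells was 74.0 CPM without mouse 17. Weighted to the tumor makeup, the core level of Ikzf2 went from 170 to 285 CPM against 867 CPM in tumors. All 9 tested Treg genes were negative, with a median of -1.47, yet Ikzf2 alone was called. Tnfrsf18 and Tnfrsf4, the costimulatory receptors GITR and OX40, had log2 fold changes of -1.25 and -1.47 (adjusted p = 0.0643 and 0.0524), and weighting took Tnfrsf18 from 687 to 1123 CPM in cores against 981 CPM in tumors.

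Dapl1, a gene of resting naive T cells, read 334, 383, 310 and 290 CPM in tumors and 0, 42.8 and 204 CPM in the lowest, median and highest core, without overlap (log2 fold change -2.28, SE 0.45, adjusted p = 0.00811). In metastasis sections of 13 mice it read 0 to 683 CPM, across the range of the tumors. Within CD4 Lef1 cells, the naive CD4 subpopulation, it read 1050 CPM in tumors and 194 CPM in cores. Cd74, at 404, 307, 461 and 412 CPM in tumors and 0 to 233 CPM in cores, and Spp1 were also called lower in T cells. Cd74 is chiefly a gene of antigen-presenting cells, B cells among them, and Spp1 chiefly one of myeloid cells. The summed monocyte and macrophage markers in T cells read 357 to 551 CPM in tumors and 52.6 to 771 CPM in cores, with none of 12 at 0 in either, and B cell and plasma cell markers 488 to 658 and 0 to 1470 CPM. The part of such carried-over RNA in the Cd74 and Spp1 values was not tested. Pkm was lower with a log2 fold change of -1.57 (adjusted p = 0.0182). Cytotoxic genes leaned upward, with 11 of 14 positive and a median of 0.89, but none was called, Ccl5 with 1.16 and Nkg7 with 1.08 both at adjusted p = 0.0544. CD8 Gzmk cells were 16.6% of tumor T cells and 36.6% of core T cells. Weighted to the tumor makeup, the core level of Ccl5 went from 6582 to 3246 CPM against 3043 CPM in tumors, and that of Nkg7 from 4829 to 2819 CPM against 2058 CPM. Of the 27 type I interferon genes tested, 26 were negative with a median of -0.63 and none was called. Of the 5 genes called higher, Rpl35, Gm10059, Gm4342 and Gm4613 were not higher in both cores of the shared batch. Of the 6 called lower, 5 were lower in both, Xist being the exception, beside 41.1% of all tested genes lower in both and 32.95% higher. S100a8 read 9.18 and 223 CPM there against 8.78 CPM in the tumor, beside summed neutrophil markers of 131 to 334 CPM in tumors and 46.2 to 2344 CPM in cores. Without the tumor of mouse 10 only 1 gene was called, and without that of mouse 9, 2.

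**Figure D5:**
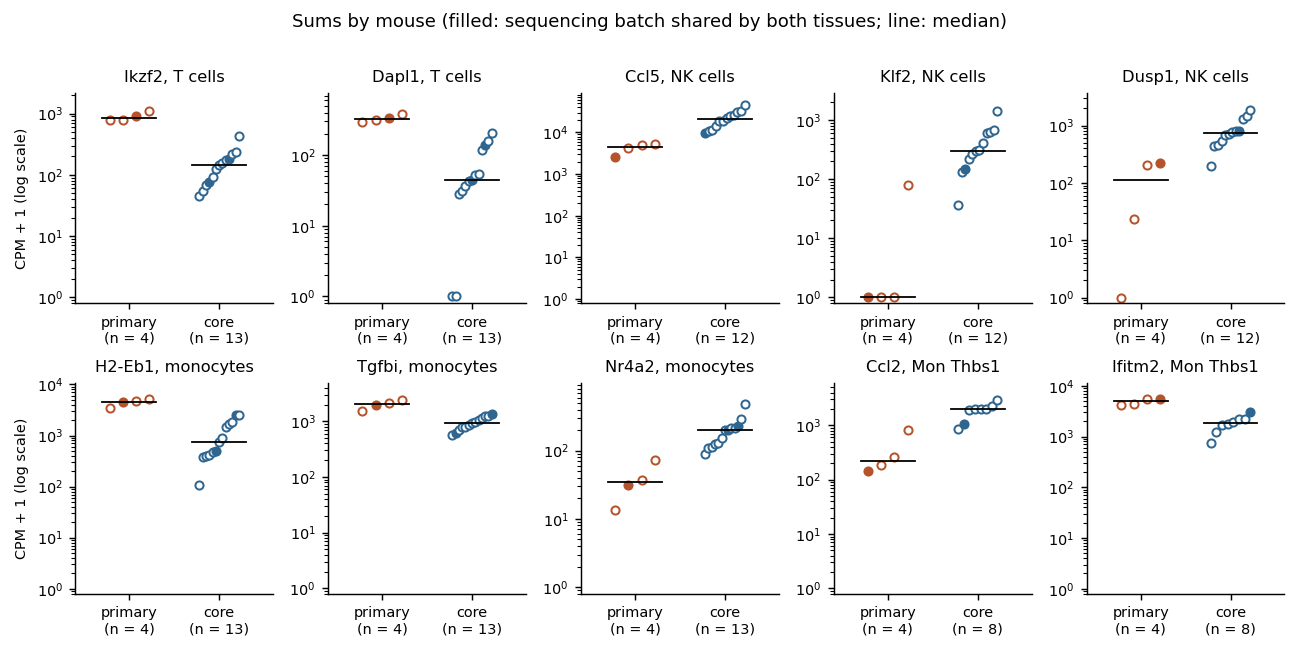
CPM + 1 on a log scale of genes in T cells (Ikzf2, Dapl1), NK cells (Ccl5, Klf2, Dusp1), monocytes (H2-Eb1, Tgfbi, Nr4a2) and Mon Thbs1 cells (Ccl2, Ifitm2), 1 point per mouse, filled for the shared sequencing batch, with a line at the median. Ikzf2 lies between 778 and 1099 CPM in tumors and at or below 426 CPM in cores, and Ccl5 in NK cells lies at or above 9841 CPM in every core and at or below 5333 CPM in every tumor.

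In NK cells (49 cells of 4 tumors, 386 cells of 12 cores), 8 of 594 genes were higher in cores and 8 were lower (1.35% each). Ccl5, the chemokine RANTES that NK cells and effector T cells release (chromosome 11, 83525778 to 83530518, minus strand), read 2640, 4923, 5333 and 4260 CPM in tumors and 9841, 20560 and 44950 CPM in the lowest, median and highest core. Every core was above every tumor (log2 fold change 2.28, SE 0.41, adjusted p = 0.0012), and the call held without any 1 tumor. The core NK cells were mostly NK Ncr1 and those of tumors mostly NK Xcl1, which made 65.3% of NK cells in tumors and 20.3% in cores. Within NK Ncr1 cells Ccl5 read 14350 CPM in tumors and 38170 CPM in cores. Within NK Xcl1 cells the values were close, at 642 CPM in tumors and 816 CPM in cores, or 524 CPM in cores without mouse 36. Weighted to the tumor makeup the core level went from 27990 to 10740 CPM against 4488 CPM. These pooled values leaned on the core of mouse 17, without which Ccl5 read 24370 CPM in core NK Ncr1 cells and 16710 CPM in all core NK cells, and the weighted core level was 6724 CPM. Klf2, a transcription factor of circulating lymphocytes, read 0, 0, 0 and 79.3 CPM in tumors, 7 UMIs in all, and 34.9, 304 and 1450 CPM in cores (log2 fold change 3.62, SE 0.87, adjusted p = 0.0122). Dusp1, a phosphatase of the immediate early response, read 220, 0, 22.5 and 204 CPM in tumors and 196 to 1871 CPM in cores (log2 fold change 2.78, SE 0.61, adjusted p = 0.0073), and all 9 immediate early and heat shock genes tested were positive with a median of 1.04. Klf2 lost its call without the tumor of mouse 9 or 10 (adjusted p = 0.056 and 0.052).

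Below the tumors, Ms4a4b, a membrane protein of T and NK cells, read 2420, 3478, 3690 and 3172 CPM in tumors and 605 to 1943 CPM in cores (log2 fold change -1.30, SE 0.28, adjusted p = 0.0073). Tmsb10, which binds actin monomers, read 6820, 3933, 5895 and 6061 CPM in tumors and 605 to 4351 CPM in cores (log2 fold change -1.61, SE 0.36, adjusted p = 0.0079), and was also lower in Mon Thbs1 cells (log2 fold change -1.40, adjusted p = 0.0141). Xcl1, the chemokine that attracts type 1 dendritic cells, read 1265, 1525, 7695 and 861 CPM in tumors and 130 to 2824 CPM in cores and did not pass (log2 fold change -1.68, adjusted p = 0.0619), nor did the granzyme gene Gzma (0.94, adjusted p = 0.101). S100a8 had no UMI in tumor NK cells and was found in 11 of 12 cores, at least 45.7-fold higher in the UMIs pooled over cores, against a floor of 3 UMIs over the pooled tumors. Most of these UMIs came from mouse 17, and without it the bound was 9.33-fold, on 44 UMIs. None of the 14 neutrophil markers had a UMI in tumor NK cells, and in cores they summed to 0 to 2430 CPM with 1 of 14 at 0. T cell markers, 1338 to 2530 CPM in tumor and 151 to 2362 CPM in core NK cells, lay below the NK markers in all mice, at 7830 to 15570 and 11020 to 22890 CPM. In the shared batch, with 1 core, all 8 genes called higher and 7 of the 8 called lower had the direction of the whole comparison, Mbnl1 being the exception. Of all tested genes, 43.9% were higher and 56.1% lower in that core.

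In dendritic cells (171 cells of 4 tumors, 177 cells of 7 cores), 4 of 1081 genes were higher in cores (0.37%) and 1 was lower (0.0925%). This lineage held 5 plasmacytoid-labelled wells, 4 from the cores of mice 31 and 36 and 1 from the tumor of mouse 9, in which immunoglobulin made 39.2 to 88.9% of UMIs, and B cell and plasma cell markers summed to 394400 CPM in the core of mouse 36 and 64450 CPM in that tumor. Those wells go against their label, and without them 11 of 2011 genes were higher and 9 were lower in cores. Leaving them out also took 1 core below the minimum number of wells, and 6 cores were tested. The 2 changes cannot be told apart. Without the core of mouse 36 the number of genes called was 41. The gene below the tumors was Il12b, the p40 chain of IL-12 and IL-23 that mature dendritic cells make. It read 129, 218, 292 and 664 CPM in tumors, 485 UMIs in all, and 2 UMIs were found in the 7 cores with enough cells for the test, both in mouse 25 (228 CPM), with 6 cores at 0 (log2 fold change -5.40, SE 0.98, adjusted p = 0.023). That core lay within the range of the tumors, on a total of 8766 UMIs, the smallest of the 7 cores. Migratory dendritic cells were 28.7% of tumor and 8.04% of core dendritic cells, and within them Il12b read 1799 CPM (469 UMIs) in tumors and 129 CPM (3 UMIs) in cores. In type 1 conventional dendritic cells it read 99.1 CPM (16 UMIs) in tumors and 149 CPM (9 UMIs) in cores. Both pooled values hold all cores, also those left out of the test. Without 1 core they read 44.3 CPM in migratory cells (mouse 25) and 55.3 CPM in type 1 cells (mouse 26). Of the 11 migration and maturation genes tested, 10 were negative with a median of -1.17. Ccl5 in dendritic cells, at 2595, 3616, 1852 and 5970 CPM in tumors and 495 to 2852 CPM in cores, had the sign opposite to NK cells and did not pass (log2 fold change -1.73, adjusted p = 0.0531). H2-Ab1 had a log2 fold change of 0.05 (adjusted p = 0.973), and the 23 type I interferon genes were positive in 19 cases with a median of 0.34 and no call. The genes called higher were Gm15590, a processed pseudogene that also rose in macrophages and monocytes, Gm10059, Mir692-3 and Rps27. In the shared batch Gm10059 read 38.6 CPM in the tumor and 17.7 CPM in the core, and Rps27 12.9 and 17.7 CPM. That core, of mouse 36, held 56557 UMIs with those of its immunoglobulin-rich wells among them. Its normalization factor was 0.456, against 1.12 in the tumor of mouse 8. These CPM values therefore give no direction. Without the tumor of mouse 10 or 38 no gene was called, Il12b standing at -5.48 (adjusted p = 0.067) and -4.74 (adjusted p = 0.16).

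In Mac Isg20 cells, macrophages with an interferon signature (26 cells of 4 tumors, 228 cells of 9 cores), none of 613 genes was called in either direction (0% and 0%), with 62 at an unadjusted p under 0.05 and 11 called by DESeq2. The tumors gave only 13647 to 45000 UMIs each to this test. Of 18 interferon genes tested 17 were positive with a median of 0.84, all 8 glycolysis genes were negative with a median of -0.74, and 6 of 8 chemokines were positive with a median of 1.99, none of them called. C1qb, the gene below the tumors in all macrophages, read 73.3, 199, 571 and 4356 CPM in tumors and 432 to 2653 CPM in cores here (log2 fold change -0.04, adjusted p = 0.989), with the tumors spread more widely than the cores. Isg20 had a log2 fold change of -0.12 in all macrophages (adjusted p = 0.959).

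In CD8 Gzmk cells, the effector memory CD8 T cells (58 cells of 3 tumors, 433 cells of 11 cores), none of 577 genes was called (0% and 0%), with 98 at an unadjusted p under 0.05 and 34 called by DESeq2. The tumor of mouse 8 had too few of these cells. Ccl5 read 9261, 9039 and 7681 CPM in the tumors of mice 9, 10 and 38 and 10040, 14550 and 19590 CPM in the lowest, median and highest core, without overlap but below the threshold (log2 fold change 0.55, SE 0.31, adjusted p = 0.352). All 15 type I interferon genes tested were negative with a median of -1.11, and 8 of them had an unadjusted p under 0.05. All 9 MHC class I presentation genes were negative with a median of -0.60, such as H2-K1 with 7001, 4244 and 3787 CPM in tumors and 1587 to 4220 CPM in cores (log2 fold change -0.89, adjusted p = 0.154). Of 10 immediate early and heat shock genes 9 were positive with a median of 0.94.

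The difference between tissues itself differed between lineages for a few genes. Tested in mice with both lineages, 18 of 2992 genes had a macrophage difference unlike the monocyte difference, 14 with the more positive change in macrophages and 4 with the more negative. Among the first were Fn1, Slc7a11, Gpnmb, Gclm and Ftl1, and among the second C1qb, C1qc and Selenop. Between monocytes and T cells 1 of 2981 genes, Fos, the immediate early factor, differed (difference of log2 fold changes -2.25, adjusted p = 0.00408). Its mean was 3652 CPM in tumors and 3453 CPM in cores in monocytes, and 193.5 and 786.5 CPM in T cells. No negative difference was called between these lineages without the tumor of mouse 9, 10 or 38, or with thinned tumor sums. The macrophage count was 1 when the tumor sums were thinned to the median core depth and 0 without the tumor of mouse 9.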

How the data were processed

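Single immune cells were sorted into plates and sequenced by SPID-seq, a plate method with 3' ends and UMIs. The counts are whole UMI counts per gene and well as the authors deposited them. The authors demultiplexed with bcl2fastq 2.15.0.4 (submitters' processing notes), mapped to mm10 with HISAT, dropped reads with multiple positions, counted exonic reads and discarded wells under 500 UMIs. Doublets were gated out at the sort and no doublet caller was run here. The deposited annotation gave the cell types, and wells it left without an immune type were not used (72 in tumors, 98 in cores, such as tumor cells and erythrocytes).

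UMIs were summed per mouse within each population over 52634 gene rows, with 92 spike-in rows left out. A mouse entered with at least 10 wells, or 5 for NK cells, Mac Isg20 and the comparison in Mac Cd81 wells alone. Tests used edgeR 4.0.16 in R 4.3.3 (filterByExpr with a minimum count of 10, TMM, quasi-likelihood, Benjamini-Hochberg over all genes tested, threshold 0.05). Each sample is a separate mouse, so p-values measure the spread between mice. DESeq2 1.42.0 and limma 3.58.1 served as alternatives, with thinned wells, deeper wells, other filters and left-out mice. Levels without 1 core were added after seeing the data. The test was checked on simulated sums with 1 spread for all genes. By population it called 8.54 to 27.3% of genes changed 2-fold and 61.8 to 98.7% of those changed 4-fold. It also called 1 to 10 unchanged genes. Most 2-fold changes were thus missed, also in Mac Isg20 (17.4% called) and CD8 Gzmk (22.8% called). Genes were named by rule: in each population up to 6 genes higher and 6 lower, by size of the fold change, of those called that did not overlap and reached a mean of 100 CPM, up to 5 members of each list, and genes the study discusses for these tissues. Called genes outside that rule were chosen after their values were seen, among them Adgre1, Fcgr4, Ccl3, Gclm, Txnrd1, Prdx6, F10, F7, Selenop, S100a8 and Gadd45b, Ifitm2 in macrophages, Tmsb10 in NK cells and the genes given by sequencing batch. The populations and gene lists were chosen with earlier results of these data known. Positions are those of GENCODE vM21. No reads were realigned, and aligner settings per batch are not given in the sources used here.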

Additional observations from a re-analysis of the deposited data

Results flagged for a closer look

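Single mice stood far from the others of their group in 12 of 115 groups of 4 to 10 mice tested, 7 of tumors and 5 of cores. The cutoff flags about 5% of groups of independent, normally spread values. These groups share mice, hold called genes and rest on counts, so 12 of 115 cannot be set against that rate. For Klf2 and Il12b all other mice of the group were at 0. Among tumors these were Klf2 in NK cells (79.3 CPM, mouse 38), Gm15590 in dendritic cells (393 CPM) and macrophages (954 CPM), both in mouse 8, Slc7a11 (55.7 CPM) and C1qa (4264 CPM) in macrophages of mouse 10, Ccl2 in macrophages of mouse 8 (104 CPM) and Ccl2 in Mon Thbs1 cells of mouse 38 (810 CPM). Among cores these were Il12b in dendritic cells of mouse 25 (228 CPM), C1qa (2481 CPM) and C1qc (3453 CPM) in macrophages of mouse 31, Ccl8 in macrophages of mouse 37 (420 CPM) and Gbp7 in macrophages of mouse 24 (255 CPM). The core of mouse 31 was the one nearest the tumors for both C1q chains and also had the highest Gpnmb of all cores, at 3143 CPM.

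The tissue difference differed between 2 lineages of the same mice for 19 genes in edgeR's test of the interaction. Genes tested were 2981 in monocytes against T cells and 2992 in macrophages against monocytes. For Fos the log2 fold change in monocytes minus that in T cells was -2.25 (adjusted p = 0.00408). This call was lost without the tumor of mouse 9, 10 or 38, where no negative difference was called. In macrophages against monocytes, the differences of log2 fold changes were positive for Slc7a11 (3.88, adjusted p = 0.00641), Fn1 (4.14), F10 (2.00), Rhov (3.94), Gclm (3.86), Gpnmb (3.78), Mmp8 (3.05), Cd63 (2.11), Adam8 (1.93), Ly6c2 (1.83), Lilrb4a (1.38), Lgals3 (1.08), S100a10 (1.08) and Ftl1 (0.95). They were negative for Selenop (-2.51, adjusted p = 0.00641), C1qc (-2.46), C1qb (-2.11) and Ighm (-3.34). Ighm is a B cell transcript, and B cell and plasma cell markers summed to 83.0 to 475 CPM in tumor macrophages and 0 to 271 CPM in core macrophages. For Cd63 the macrophage log2 fold change was 0.005, and its mean in monocytes went from 108.5 CPM in tumors to 21.9 CPM in cores. In macrophages against monocytes, 6, 0, 3 and 9 genes in all were called without the tumor of mouse 8, 9, 10 and 38. Those genes need not be the ones named here.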

How the results depend on the processing

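Numbers of genes called are given in the order T cells, NK cells, dendritic cells, monocytes, macrophages, Mon Thbs1, Mac Isg20 and CD8 Gzmk, where edgeR gave 11, 16, 5, 27, 99, 32, 0 and 0. DESeq2 gave 98, 32, 38, 80, 172, 100, 11 and 34, and testing without a filter on low counts gave 342, 17, 67, 320, 258, 51, 3 and 16. Thinning every well to 500 UMIs gave 33, 6, 2, 23, 40, 25, 2 and 0, and thinning the tumor sums to the median core depth gave 3, 14, 0, 8, 61, 16, 0 and 0. Wells of at least 1000 UMIs gave 6, 5, 1, 29, 65, 16, 0 and 0. Metastasis sections in place of cores, nearly all from mice that also gave a core, gave 55, 14, 1, 173, 206, 7, 0 and 4. Sequencing batch as a covariate gave 1, 0, 0, 0, 2, 0 and 0 and could not be fitted for CD8 Gzmk. At least 20 wells per mouse gave 90 in dendritic cells, 47 in monocytes and 74 in Mon Thbs1, and was not run for NK cells, Mac Isg20 and CD8 Gzmk. Without the core of mouse 17, dendritic cells gave 12. RLE size factors moved no count by over 1.5 times. Without 1 tumor at a time the counts ranged from 1 to 21, 8 to 15, 0 to 1, 0 to 15, 43 to 93, 0 to 33, 0 to 2 and 0 to 0, and for the interactions from 0 to 8 (monocytes against T cells, 1 gene with all mice) and 0 to 9 (macrophages against monocytes, 18 genes with all mice). With thinned tumor sums the interactions gave 0 and 1. The CD8 Gzmk test never held the tumor of mouse 8.

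Chosen after seeing the data, limma voom with sample weights gave 213, 14, 90, 357, 339, 212, 2 and 35, protein-coding genes alone gave 10 in NK cells, 1 in dendritic cells, 12 in monocytes and 16 in Mon Thbs1, and dendritic cells gave 41 without the core of mouse 36 and 20 without immunoglobulin-rich wells, which also left 1 core fewer. Macrophages gave 48 in Mac Cd81 wells alone. Of 1045 alternative values for the 68 named genes that were called, 1043 kept their sign and 748 kept their call. The 2 that reversed were Ccl2 in macrophages in Mac Cd81 wells alone (log2 fold change -0.29, adjusted p = 0.864) and Crip1 in macrophages with batch as a covariate (-0.39, adjusted p = 0.895). The cause was not tested. With batch as a covariate 66 of the 68 lost their call and kept their sign, and that fit compares 1 tumor with 1 or 2 cores. No paired analysis was possible because no mouse gave both tissues. The core sums, down to 6611 UMIs in NK cells, limit what can be seen of low genes.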

Other observations

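Some noncoding and overlapping loci stood among the calls. Gm26917 and Gm42418, long noncoding loci that overlap ribosomal RNA sequence, were lower in core NK cells (Gm26917 log2 fold change -2.27, adjusted p = 0.000253, Gm42418 -1.75, adjusted p = 0.0079). In T cells Gm42418 read 8382 CPM in the tumor of the shared batch, 9326 and 13110 CPM in its 2 cores, 14930 to 23650 CPM in the other tumors and 2478 to 15940 CPM in the other cores. Mir692-1, Mir692-2 and Mir692-3 were called higher in core macrophages and monocytes, although 3' end libraries of polyadenylated RNA do not measure mature microRNAs. On the same strand, Mir692-2 (chromosome 4, 125504749 to 125504857) overlaps Ftl2-ps (125504288 to 125504839) and Mir692-3 (chromosome 13, 74407065 to 74407173) lies within Ftl1-ps1 (74399694 to 74407346) in GRCm38, so they are not independent of the values of these ferritin copies.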
